A study of Homo sapiens with 12 samples.

Results

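The guidance genes described here encode semaphorins and their plexin receptors, Eph receptors and the ephrins they bind, slits and their robo receptors, and netrins with the UNC5 receptors. They were taken by gene name (a family name followed by a subtype only), and TPM (an abundance corrected for the length of the gene, with the same total in every library) was summed for each gene identifier. Of 63677 identifiers, 74 carried such a name, and 45 of these had a mean of at least 1 TPM over the 12 libraries and are described. The other 29 lay under that level and were counted. The described genes were 12 of 21 semaphorins, 9 of 11 plexins, 2 of 9 EphA and 5 of 6 EphB receptors, 4 of 6 ephrin-A and 3 of 3 ephrin-B genes, 2 of 3 slits, 3 of 4 robo receptors, 4 of 6 netrins and 1 of 5 UNC5 receptors.

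The RNA came from DAOY, an established human medulloblastoma cell line. The cells were NOTCH2KO or NOTCH1KO, lines in which CRISPR/Cas9 had been directed at NOTCH2 or NOTCH1, or wild type (WT), and each genotype was represented by a single line. Each genotype was grown on plates coated with Jagged1, a Notch ligand, or with the control protein Fc. On either plate the cells received DAPT for 12 h, an inhibitor of the γ-secretase that releases the active Notch fragment, or the solvent DMSO, and each of the 12 combinations gave 1 library. Library values below follow one order within a genotype: Jagged1 with DAPT, Jagged1 with DMSO, Fc with DAPT and Fc with DMSO.

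Guidance proteins tell a growing axon or a migrating cell where to go. Semaphorins signal through plexins, many of those secreted as class 3 with the help of neuropilins. Ephrins sit on the membrane of one cell and bind Eph receptor tyrosine kinases on its neighbour, and slits repel cells through robo receptors. Classical netrins attract through DCC or repel through UNC5 receptors. In the mouse cerebellum, the tissue in which medulloblastoma arises, Sema6a and plexin A2 steer migrating granule cells. Notch receptors, once cleaved, enter the nucleus and act on DNA through the protein RBPJ, which binds sequences with the core TGGGAA.

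The promoters of 4 members are shown because SLIT3 and PLXNA2 were among the genes that were lowest in NOTCH1KO relative to WT, and because NTN4 and EFNB2 differed between the Jagged1 cultures with and without DAPT, although not past the test. Each sequence runs 5′ to 3′ over 300 bases around the start of the gene in RefSeq (build GRCh38.p14, minus strand), in lower case, with TGGGAA or its reverse complement TTCCCA in capitals.
SLIT3 (chr5:169301090-169301389): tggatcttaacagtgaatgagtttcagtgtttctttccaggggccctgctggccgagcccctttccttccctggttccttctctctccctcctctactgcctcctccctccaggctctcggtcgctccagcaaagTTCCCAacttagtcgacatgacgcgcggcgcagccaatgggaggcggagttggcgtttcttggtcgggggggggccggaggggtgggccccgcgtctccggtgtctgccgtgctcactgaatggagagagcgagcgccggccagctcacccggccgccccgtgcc
PLXNA2 (chr1:208244335-208244634): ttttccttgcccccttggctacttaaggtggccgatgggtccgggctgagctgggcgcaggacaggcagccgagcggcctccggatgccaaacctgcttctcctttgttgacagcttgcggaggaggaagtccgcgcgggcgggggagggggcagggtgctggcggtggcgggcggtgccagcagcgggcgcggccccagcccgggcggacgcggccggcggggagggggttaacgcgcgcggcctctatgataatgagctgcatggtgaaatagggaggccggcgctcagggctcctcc
NTN4 (chr12:95791106-95791405): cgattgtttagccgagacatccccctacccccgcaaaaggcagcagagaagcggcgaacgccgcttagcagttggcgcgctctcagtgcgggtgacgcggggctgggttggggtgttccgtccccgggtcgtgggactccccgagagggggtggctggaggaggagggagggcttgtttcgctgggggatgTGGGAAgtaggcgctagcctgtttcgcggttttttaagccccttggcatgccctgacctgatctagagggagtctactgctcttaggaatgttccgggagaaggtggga
EFNB2 (chr13:106535613-106535912): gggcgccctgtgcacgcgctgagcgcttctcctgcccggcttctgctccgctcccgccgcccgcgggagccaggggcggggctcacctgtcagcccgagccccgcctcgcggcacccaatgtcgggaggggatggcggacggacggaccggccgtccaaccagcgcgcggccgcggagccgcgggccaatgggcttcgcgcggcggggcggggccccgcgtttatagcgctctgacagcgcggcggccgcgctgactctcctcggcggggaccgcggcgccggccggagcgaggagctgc

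The NTN4 window held TGGGAA as part of GTGGGAA, as did a neighbouring NTN4 window (chr12:95790715-95791014). The SLIT3 window held TTCCCA, and the windows of PLXNA2 and EFNB2 held neither. The RefSeq table covered 38 of the 45 members with 54 windows, of which 14 (25.9%) held TGGGAA on either strand, against 24% of all 35116 windows. GTGGGAA, which contains the shorter motif, was present on either strand in 5.56% of the members' windows, those of EFNA1 and NTN4, and in 6.25% of all windows. A match describes the letters and is not evidence of a bound site.

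The libraries held between 18.3 and 22.4 M reads, so that a single read in a transcript of 1 kb came to 0.0947 to 0.117 TPM. NOTCH2 was at 41.6 to 60.5 TPM in NOTCH2KO libraries, against 74.9 to 94.9 TPM in WT libraries (log2 difference -0.67, limma adjusted p = 0.00879), and NOTCH1 at 0.278 to 0.874 TPM in NOTCH1KO libraries, against 2.78 to 3.57 TPM in WT libraries (log2 difference -1.43, adjusted p = 0.000436). Of 12 genes of the cerebellar granule lineage and medulloblastoma, 6 reached a mean of 1 TPM, among them ZIC1 (11.6 TPM), ZIC2 (12.4 TPM), PAX6 (16.1 TPM) and OTX2 (2.86 TPM), while ATOH1, BARHL1, NEUROD1 and CNTN2 were near 0. Of the defining genes of other cells, PECAM1, PTPRC, CD3E, HBB, DCX, MOG and SOX10 were listed at 0 in the 12 libraries. Others of the same lists were expressed, among them the neuronal TUBB3 (50.1 TPM) and NEFL (24.8 TPM), the endothelial TIE1 (31.1 TPM) and TEK (6.94 TPM), LCP1 of blood cells (10.8 TPM) and SLC1A3 of astrocytes (6.62 TPM). With bulk RNA, fewer cells of a type and less RNA per cell cannot be told apart.

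The members of highest TPM were receptors. EPHB2 averaged 78.0 TPM over the 12 libraries, EPHA2 66.9 TPM, PLXNB2 58.2 TPM and EPHB4 57.4 TPM, followed by the ligands EFNA1 at 45.7 TPM and NTN4 at 38.6 TPM. NTN1, the classical netrin of the ventral midline, was low and the steadiest member, with 4.43 to 6.04 TPM and a coefficient of variation of 9.34%. At the threshold of 1 TPM, SEMA6C (1.26 TPM) and SEMA3D (1.34 TPM) lay just inside and SEMA3E (0.691 TPM) and SEMA6D (0.674 TPM) just outside. EPHA6, NTN3, NTN5 and SLIT1 were listed at 0 in the 12 libraries, as were a second EFNA3 identifier and the 4 copies of members on patch sequences. The spans of EFNA3 (chr1:155036224-155060014) and EFNA4 (chr1:155036207-155042029) overlap on one strand, so that the split of reads between them is uncertain. Ranked by the deposited mean read depth per base in place of TPM, EPHA2 came first, SEMA7A second and EPHB2 only 20th, so the order differed between these measures.

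**Figure D1:**
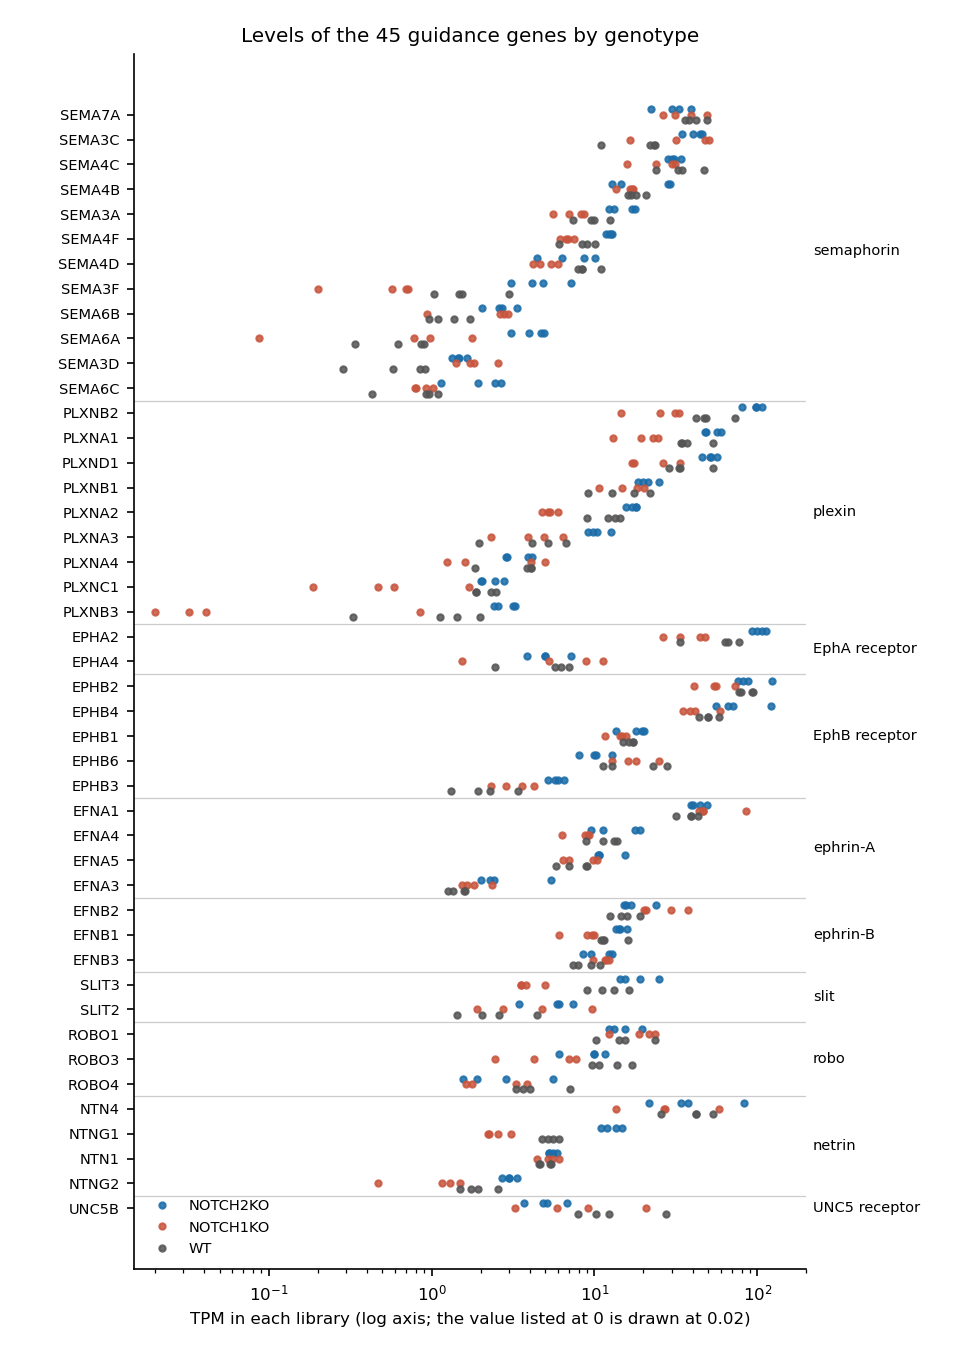
TPM of the 45 described guidance genes in each of the 12 libraries on a log axis, grouped by family, with a point for each library coloured by genotype. SLIT3 sits at 14.3 to 24.8 TPM in NOTCH2KO, 3.53 to 5.004 TPM in NOTCH1KO and 8.99 to 16.3 TPM in WT libraries, and the PLXNB3 value listed at 0 is drawn at 0.02.

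To learn which guidance genes differed between the genotypes, the libraries were compared with an additive model of genotype and culture (limma on log2(TPM + 1)). A gene was called at an adjusted p under 0.05 over all 17621 genes with a mean of at least 1 TPM. Each genotype was a single line, so an effect of the knockout and another difference between lines cannot be told apart. Differences are log2 differences on that scale, which understates changes of low genes, and in counts of genes higher and lower refer to called genes. In NOTCH2KO against NOTCH1KO, 21 members were higher and 2 lower, against 19.8% of all genes higher and 11.9% lower. In NOTCH2KO against WT, 14 were higher and 2 lower, where 12% and 7.35% of all genes were. In NOTCH1KO against WT, 2 were higher and 13 lower, where 10.7% and 12.8% of all genes were. The members' median difference was 0.48, 0.46 and -0.25 in these comparisons, against 0.07, 0.06 and 0.00 over all genes. The 3 comparisons share libraries, so their values are given side by side and are not independent of each other.

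The counts depended on single libraries. Those for NOTCH2KO against WT fell to 7 when WT on Fc with DMSO was left out, to 9 without WT on Jagged1 with DMSO, NOTCH2KO on Fc with DMSO or NOTCH2KO on Jagged1 with DAPT, and to 10 without NOTCH2KO on Jagged1 with DMSO. Those for NOTCH1KO against WT fell to 9 without WT on Fc with DMSO or WT on Fc with DAPT, while between the knockouts 18 to 23 were called. The shares of all genes called fell as well. In those fits they were 11.5% to 12.3% in NOTCH2KO against WT, where 19.3% were called with all libraries. In NOTCH1KO against WT they were 15%, where 23.5% had been called. Between the knockouts they were 23.4% to 31.4%, where 31.7% had been called. Because the counts depended on single libraries, a call lost when some library was left out is given below with a number of fits. That is the number of the 12 fits, each without 1 library, in which the call held. SLIT3, PLXNA1, PLXNA2, PLXNB2, NTNG1, EFNB2 and SEMA3D held in NOTCH1KO against WT in those fits and in the other settings run, as did SEMA3F, SEMA4F, SEMA6A, EPHA2, EPHB3 and NTNG1 in NOTCH2KO against WT, and 14 members between the knockouts.

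**Figure D2:**
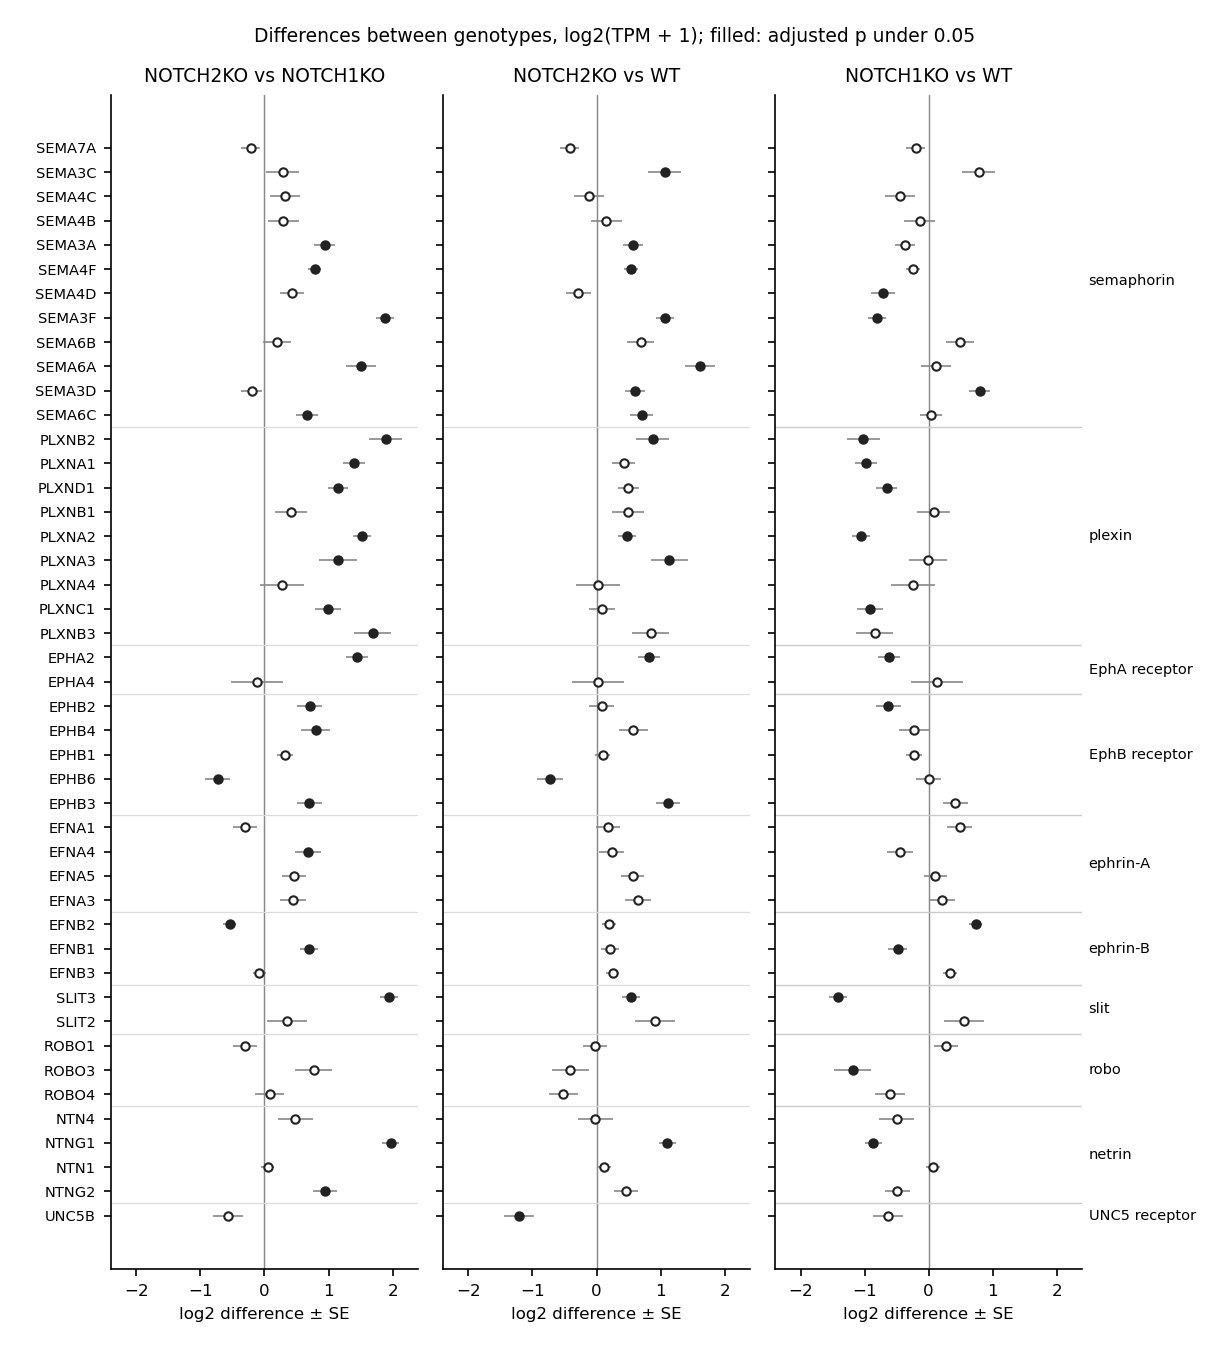
Log2 difference ± SE (limma, log2(TPM + 1)) of the 45 guidance genes in NOTCH2KO against NOTCH1KO, NOTCH2KO against WT and NOTCH1KO against WT, with filled points for an adjusted p under 0.05. Among plexins, 7 of 9 are called higher in NOTCH2KO than in NOTCH1KO and 5 of 9 lower in NOTCH1KO than in WT. The shares of all genes are 19.8% and 12.8%.

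Of 12 semaphorins, the ligands of plexins, 7 were called higher in NOTCH2KO than in WT, where 12% of all genes were, and none was called lower. The 5 not called differed by -0.42 (SEMA7A) to 0.69 (SEMA6B), and of the 7 calls those of SEMA3F, SEMA4F and SEMA6A held in every setting run. In NOTCH2KO against NOTCH1KO 5 were called higher, and in NOTCH1KO against WT 1 was called higher and 2 lower. The shares of all genes in those directions were 19.8%, 10.7% and 12.8%. SEMA6A, a transmembrane semaphorin that binds plexin A2 and plexin A4, was at 3.07, 4.89, 4.73 and 3.96 TPM in NOTCH2KO, at 0.975, 0.0877, 1.76 and 0.777 TPM in NOTCH1KO and at 0.338, 0.626, 0.897 and 0.863 TPM in WT libraries. Every NOTCH2KO library was above every other library, at a level that averaged 6.11 times that of WT (log2 difference 1.503, SE 0.23, adjusted p = 0.00207 against NOTCH1KO and log2 difference 1.62, SE 0.23, adjusted p = 0.00281 against WT). NOTCH1KO and WT overlapped (log2 difference 0.11, SE 0.23, adjusted p = 0.760). The values outside NOTCH2KO are mostly under 1 TPM and rest on few reads.

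SEMA3F, a secreted repellent that acts through neuropilin-2, was at 4.15, 7.18, 3.06 and 4.83 TPM in NOTCH2KO, 0.692, 0.720, 0.201 and 0.570 TPM in NOTCH1KO and 1.47, 2.97, 1.03 and 1.54 TPM in WT libraries. The 3 genotypes did not overlap, with NOTCH2KO highest and NOTCH1KO lowest. The difference was 1.88 (SE 0.14, adjusted p = 7.03e-05) between NOTCH2KO and NOTCH1KO, 1.08 (adjusted p = 0.00178) against WT in NOTCH2KO and -0.80 (adjusted p = 0.00532) against WT in NOTCH1KO. The last of these was -0.43 (adjusted p = 0.0993) after correction for GC content and length.

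SEMA3C, a secreted semaphorin that can attract axons and promotes migration of several cell types, was at 34.5, 44.7, 40.1 and 45.8 TPM in NOTCH2KO, 31.6, 16.4, 50.5 and 47.8 TPM in NOTCH1KO and 23.2, 10.97, 21.9 and 23.7 TPM in WT libraries. NOTCH2KO lay above WT in each culture and without overlap (log2 difference 1.06, SE 0.26, adjusted p = 0.0230, held in 9 of 12 fits). In NOTCH1KO the Jagged1 DMSO library stood within the WT range, and the difference from WT did not pass the test (log2 difference 0.78, SE 0.26, adjusted p = 0.06). SEMA3A, the prototype class 3 repellent, averaged 15.0 ± 2.76 TPM in NOTCH2KO, 7.36 ± 1.39 TPM in NOTCH1KO and 9.82 ± 2.11 TPM in WT libraries (SD, n = 4 each), a difference of 0.94 (adjusted p = 0.00301) from NOTCH1KO and of 0.57 (adjusted p = 0.0375, held in 3 of 12 fits) from WT. SEMA3D rose in both knockouts, with 1.48 ± 0.133 TPM in NOTCH2KO and 1.87 ± 0.482 TPM in NOTCH1KO, against 0.655 ± 0.286 TPM in WT (0.60, adjusted p = 0.0350, held in 5 of 12 fits, and 0.80, adjusted p = 0.0101). These 3 genes lie in 1 stretch of chromosome 7, between 80371854 (SEMA3C) and 84816171 (SEMA3D) in GRCh37.

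Of the membrane-bound semaphorins, SEMA4F averaged 12.4 ± 0.477 TPM in NOTCH2KO, 6.80 ± 0.564 TPM in NOTCH1KO and 8.36 ± 1.68 TPM in WT libraries, and was called higher in NOTCH2KO than in either of the others (0.78, adjusted p = 0.00107, and 0.54, adjusted p = 0.0102). SEMA6C, close to the threshold of 1 TPM, had 2.05 ± 0.685 TPM in NOTCH2KO, against 0.852 ± 0.290 TPM in WT (0.70, adjusted p = 0.0246, held in 6 of 12 fits). SEMA4D, the ligand of plexin B1, fell in NOTCH1KO, with 5.07 ± 0.804 TPM against 8.91 ± 1.44 TPM in WT (log2 difference -0.71, SE 0.19, adjusted p = 0.0279, held in 6 of 12 fits), a call also lost on coverage and without the filter on low values. The median difference of the 48 tested genes within 5 Mb of SEMA4D on chromosome 9 was -0.55 in the same comparison, and its part in the result was not tested. SEMA7A, SEMA4C and SEMA4B, with SEMA3C the semaphorins of highest TPM, were not called between WT and NOTCH1KO or NOTCH2KO. By coverage SEMA3A and SEMA4F stood above SEMA3C and SEMA4B.

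Plexins, the semaphorin receptors, formed separate ranges of summed TPM in the 3 genotypes. Their summed TPM averaged 258 ± 12.6 in NOTCH2KO, 99.0 ± 20.2 in NOTCH1KO and 169 ± 13.2 in WT libraries (SD, n = 4 each). Against WT, 3 of 9 were higher in NOTCH2KO (median difference 0.49), where 12% of all genes were. In NOTCH1KO 5 of 9 were lower than in WT (median -0.84), where 12.8% of all genes were. None was called in the other direction. PLXNB1 and PLXNA4 were called in none of the 3 comparisons.

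PLXNA2, the plexin that SEMA6A binds (chr1:208195587-208417665 in GRCh37, minus strand), was at 17.9, 18.1, 15.7 and 17.1 TPM in NOTCH2KO, 4.76, 5.33, 5.96 and 5.18 TPM in NOTCH1KO and 14.3, 9.03, 12.1 and 13.4 TPM in WT libraries. The 3 genotypes formed separate ranges. The difference between NOTCH2KO and NOTCH1KO was 1.53 (SE 0.14, adjusted p = 0.000175), and that from WT 0.48 (adjusted p = 0.0451, held in 3 of 12 fits) in NOTCH2KO and -1.05 (adjusted p = 0.00161) in NOTCH1KO. The NOTCH2KO call against WT was lost after GC correction (0.25, adjusted p = 0.244) and on FPKM, and the NOTCH1KO call held in the settings run.

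PLXNB2, a receptor for class 4 semaphorins that acts in the migration of mouse granule cell precursors, was at 107, 80.9, 97.8 and 97.5 TPM in NOTCH2KO, 33.1, 25.3, 14.6 and 31.3 TPM in NOTCH1KO and 48.6, 42.1, 73.1 and 46.9 TPM in WT libraries. NOTCH2KO was 3.67 times as high as NOTCH1KO on average (log2 difference 1.89, SE 0.26, adjusted p = 0.00108), and no library of one genotype entered the range of another. Against WT the differences were 0.88 (adjusted p = 0.0451, held in 2 of 12 fits) in NOTCH2KO and -1.02 (adjusted p = 0.0225) in NOTCH1KO. Tested genes within 5 Mb of it at the end of chromosome 22 had median differences of 0.56 between NOTCH2KO and NOTCH1KO and of -0.33 in NOTCH1KO against WT, whose part in these results was not tested. The NOTCH2KO call against WT was also lost on FPKM, with median-centred libraries and without the filter on low values.

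PLXNA1, a coreceptor of class 3 semaphorins with neuropilins, was at 56.6, 48.1, 47.5 and 59.9 TPM in NOTCH2KO, 22.8, 19.4, 12.9 and 24.6 TPM in NOTCH1KO and 34.6, 53.6, 34.2 and 37.1 TPM in WT libraries. NOTCH1KO lay below the other 2 genotypes without overlap (1.40, adjusted p = 0.000737, for NOTCH2KO against NOTCH1KO and -0.98, adjusted p = 0.00582, for NOTCH1KO against WT), while NOTCH2KO and WT overlapped. PLXND1, the receptor of SEMA3E, was at 51.5, 56.5, 52.0 and 45.9 TPM in NOTCH2KO, 17.5, 33.3, 16.9 and 26.3 TPM in NOTCH1KO and 28.6, 53.7, 33.3 and 33.2 TPM in WT libraries. It was called higher in NOTCH2KO than in NOTCH1KO (1.15, adjusted p = 0.00121) and lower in NOTCH1KO than in WT (-0.65, adjusted p = 0.0204, held in 8 of 12 fits), where the libraries overlapped.

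PLXNA3, through which SEMA3F acts on axons, was at 12.6, 9.85, 10.3 and 9.18 TPM in NOTCH2KO, 4.88, 3.88, 2.32 and 6.404 TPM in NOTCH1KO and 5.21, 1.95, 6.72 and 4.14 TPM in WT libraries. NOTCH2KO stood above both of the others (1.15, adjusted p = 0.0185, held in 9 of 12 fits, and 1.14, adjusted p = 0.0293, held in 6 of 12 fits), which overlapped. PLXNB3, a receptor for SEMA5A, was at 3.25, 2.43, 3.16 and 2.55 TPM in NOTCH2KO libraries. In NOTCH1KO it was at 0.0325 TPM with Jagged1 and DAPT, 0.851 TPM with Jagged1 and DMSO and 0.0415 TPM with Fc and DAPT, and was listed at 0 with Fc and DMSO. WT libraries had 1.44, 0.331, 1.99 and 1.12 TPM. It was called only between the knockouts (log2 difference 1.69, SE 0.29, adjusted p = 0.00321), and the differences of 0.85 in NOTCH2KO and -0.84 in NOTCH1KO from WT missed the threshold (adjusted p = 0.0755 and 0.0669). PLXNC1, the receptor of SEMA7A, averaged 2.32 ± 0.376 TPM in NOTCH2KO, 0.737 ± 0.663 TPM in NOTCH1KO and 2.14 ± 0.313 TPM in WT libraries. It was lower in NOTCH1KO than in NOTCH2KO and in WT (1.00, adjusted p = 0.00702, for NOTCH2KO against NOTCH1KO and -0.92, adjusted p = 0.0141, held in 11 of 12 fits, for NOTCH1KO against WT).

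**Figure D3:**
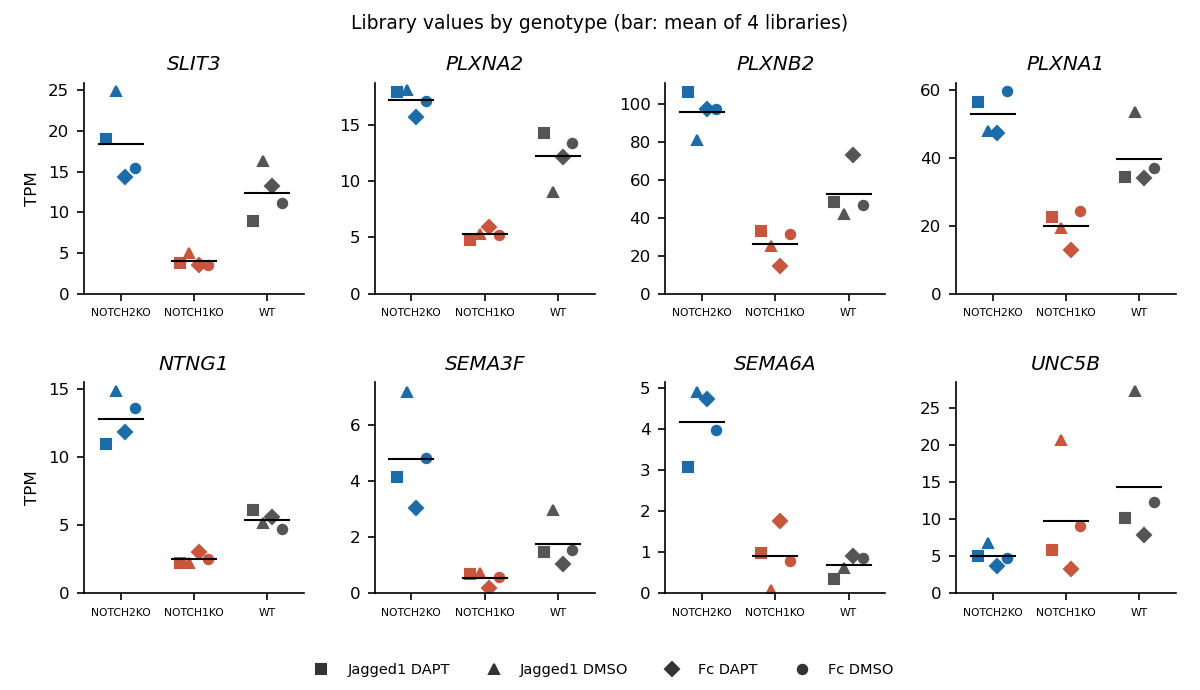
TPM of 8 guidance genes in each library by genotype, with 4 libraries a genotype, a symbol for each culture and a bar at the mean. For SLIT3, PLXNA2, PLXNB2, PLXNA1, NTNG1 and SEMA3F the 4 NOTCH1KO libraries lie below the 4 WT libraries, and for SEMA6A the 4 NOTCH2KO libraries lie above all others.

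Among Eph receptors, EPHA2 and EPHB3 rose in NOTCH2KO relative to WT, and EPHA2 and EPHB2 fell in NOTCH1KO. EPHA2, a receptor kinase frequent in epithelial and tumour cells, was at 98.9, 92.6, 113 and 107 TPM in NOTCH2KO, 47.9, 26.2, 33.5 and 44.5 TPM in NOTCH1KO and 63.0, 33.7, 77.4 and 66.0 TPM in WT libraries. NOTCH2KO was above WT and NOTCH1KO in every library (0.82, adjusted p = 0.0134, against WT and 1.45, adjusted p = 0.000634, against NOTCH1KO). NOTCH1KO was lower than WT in each culture although the ranges overlapped (-0.62, adjusted p = 0.0334, held in 5 of 12 fits), a call lost after GC correction. EPHB3, a receptor of the B ephrins, was at 6.53, 5.18, 5.69 and 5.95 TPM in NOTCH2KO, 4.23, 2.33, 3.62 and 2.86 TPM in NOTCH1KO and 1.33, 1.92, 3.39 and 2.29 TPM in WT libraries. The NOTCH2KO libraries were the 4 highest (1.12, adjusted p = 0.00601, against WT and 0.70, adjusted p = 0.0245, held in 6 of 12 fits, against NOTCH1KO).

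EPHB2, another receptor of the B ephrins and the member of highest TPM, averaged 92.0 ± 21.1 TPM in NOTCH2KO, 56.0 ± 13.4 TPM in NOTCH1KO and 85.9 ± 8.55 TPM in WT libraries (SD, n = 4 each), so that NOTCH1KO was lower than NOTCH2KO (0.71, adjusted p = 0.0245, held in 6 of 12 fits) and WT (-0.63, adjusted p = 0.0480, held in 4 of 12 fits). EPHB4, the receptor of ephrin-B2 on veins, averaged 78.5 ± 29.6 TPM in NOTCH2KO, against 43.5 ± 10.5 TPM in NOTCH1KO (0.80, adjusted p = 0.0288, held in 9 of 12 fits), with a single NOTCH2KO library, Jagged1 with DAPT, at 122 TPM. EPHB6, a family member without kinase activity, went the other way: it averaged 10.3 ± 1.95 TPM in NOTCH2KO, 18.0 ± 5.10 TPM in NOTCH1KO and 18.7 ± 7.99 TPM in WT libraries. It was lower in NOTCH2KO than in NOTCH1KO (-0.73, adjusted p = 0.0237, held in 7 of 12 fits) and in WT (-0.73, adjusted p = 0.0354, held in 5 of 12 fits). EPHB1 and EPHA4 were not called in these comparisons.

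Of the ephrins, the ligands of these receptors, none was called in NOTCH2KO against WT, 2 were in NOTCH1KO against WT and 3 between the knockouts. In either direction, 19.3%, 23.5% and 31.7% of all genes were called in these comparisons. EFNB2, the ligand of EPHB4 and a marker of arterial endothelium, was at 15.7, 23.9, 15.3 and 16.7 TPM in NOTCH2KO, 20.1, 37.6, 20.7 and 29.5 TPM in NOTCH1KO and 14.5, 19.0, 12.5 and 15.8 TPM in WT libraries. It was the only ephrin called higher in NOTCH1KO than in WT (log2 difference 0.73, SE 0.10, adjusted p = 0.00222), a call that held in the settings run, and was lower in NOTCH2KO than in NOTCH1KO (-0.54, adjusted p = 0.00550). EFNB1 averaged 14.5 ± 0.947 TPM in NOTCH2KO, 8.66 ± 1.81 TPM in NOTCH1KO and 12.5 ± 2.47 TPM in WT libraries. It was lower in NOTCH1KO than in NOTCH2KO (0.70, adjusted p = 0.00688, for NOTCH2KO against NOTCH1KO) and than in WT (-0.49, adjusted p = 0.0396, held in 3 of 12 fits). Of the ephrin-A genes 1 of 4 was called, EFNA4, with 14.4 ± 4.73 TPM in NOTCH2KO, against 8.34 ± 1.38 TPM in NOTCH1KO (0.68, adjusted p = 0.0306, held in 6 of 12 fits). EFNA1 and EFNA5 were not called, with differences from WT of 0.18 and 0.57 in NOTCH2KO and 0.48 and 0.11 in NOTCH1KO.

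SLIT3, a secreted ligand of robo receptors (chr5:168088745-168728133 in GRCh37, minus strand), was at 19.0, 24.8, 14.3 and 15.5 TPM in NOTCH2KO, 3.80, 5.004, 3.53 and 3.56 TPM in NOTCH1KO and 8.99, 16.3, 13.2 and 11.1 TPM in WT libraries. The NOTCH1KO libraries were the 4 lowest, while NOTCH2KO and WT overlapped. SLIT3 averaged 4.64 times as much in NOTCH2KO as in NOTCH1KO (log2 difference 1.94, SE 0.14, adjusted p = 6.16e-05), and differed from WT by 0.53 (adjusted p = 0.0302, held in 6 of 12 fits) in NOTCH2KO and by -1.41 (SE 0.14, adjusted p = 0.000422) in NOTCH1KO. By mean read depth per base the ratios were smaller, 2.29 for NOTCH2KO over NOTCH1KO and 0.695 for NOTCH1KO over WT, where TPM gave 0.32 for the last. Its tested neighbours within 5 Mb had a median difference of 0.23 in NOTCH1KO against WT. SLIT2, the other slit above 1 TPM, was not called: it averaged 5.69 ± 1.63 TPM in NOTCH2KO, 4.78 ± 3.49 TPM in NOTCH1KO and 2.62 ± 1.29 TPM in WT libraries.

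ROBO3, a robo receptor that governs midline crossing of hindbrain axons, was at 9.88, 6.04, 11.6 and 9.92 TPM in NOTCH2KO, 7.71, 4.23, 2.44 and 6.95 TPM in NOTCH1KO and 10.6, 9.69, 17.0 and 13.8 TPM in WT libraries. NOTCH1KO was below WT without overlap (log2 difference -1.18, SE 0.29, adjusted p = 0.0202, held in 9 of 12 fits), and NOTCH2KO overlapped with both. ROBO1, the robo gene with the highest TPM although the lowest by coverage, averaged 15.1 ± 3.33 TPM in NOTCH2KO, 19.0 ± 4.91 TPM in NOTCH1KO and 15.8 ± 5.56 TPM in WT libraries and was not called, nor was ROBO4, the robo receptor of endothelium. ERG, TEK and TIE1 were the 3 of 8 endothelial markers above 1 TPM, and the list summed to 43.5 to 48.7 TPM in NOTCH2KO, 19.8 to 44.3 TPM in NOTCH1KO and 46.6 to 51.6 TPM in WT libraries. PECAM1 was listed at 0, and VWF, KDR, CDH5 and CLDN5 had means of at most 0.201 TPM. ERG, TEK and TIE1 were each called lower in NOTCH1KO than in WT, where 12.8% of all genes were. Their part in the values of the endothelial genes EFNB2, EPHB4, ROBO4 and UNC5B was not tested.

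NTNG1, a netrin anchored to the axon membrane (chr1:107682629-108026080 in GRCh37, plus strand), was at 10.9, 14.9, 11.9 and 13.6 TPM in NOTCH2KO, 2.21, 2.26, 3.06 and 2.56 TPM in NOTCH1KO and 6.10, 5.15, 5.58 and 4.75 TPM in WT libraries. The 3 genotypes were again separate, NOTCH2KO averaging 5.08 times NOTCH1KO (log2 difference 1.97, SE 0.14, adjusted p = 5.48e-05). Against WT the differences were 1.11 (adjusted p = 0.00144) in NOTCH2KO and -0.86 (adjusted p = 0.00352) in NOTCH1KO, and both calls held in the settings run. Its relative NTNG2 averaged 2.995 ± 0.257 TPM in NOTCH2KO, against 1.11 ± 0.446 TPM in NOTCH1KO (log2 difference 0.95, SE 0.19, adjusted p = 0.00681), where the 154 tested genes within 5 Mb of it on chromosome 9 had a median difference of 0.47. NTN4, a basement membrane netrin, and NTN1 were not called between genotypes. DCC, the netrin receptor for attraction, was listed at 0 in the 12 libraries.

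UNC5B, the netrin receptor for repulsion and the only UNC5 gene above 1 TPM (chr10:72972327-73062621 in GRCh37, plus strand), was at 5.12, 6.79, 3.72 and 4.83 TPM in NOTCH2KO, 5.87, 20.8, 3.24 and 9.15 TPM in NOTCH1KO and 10.2, 27.3, 7.94 and 12.3 TPM in WT libraries. Every NOTCH2KO library was below every WT library (log2 difference -1.21, SE 0.24, adjusted p = 0.00982), and NOTCH1KO was lower than WT in each culture without passing the test (log2 difference -0.64, SE 0.24, adjusted p = 0.0837). The call in NOTCH2KO was lost when the culture term was left out of the model. UNC5B and EPHB6 were the 2 members called lower in NOTCH2KO than in WT.

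The guidance genes were rich in GC, with a median of 59.0% against 47.8% for all genes, and 26 of 45 were among the genes of highest GC content (above 57.0%, the top quintile). That quintile had a median difference of 0.37 between NOTCH2KO and NOTCH1KO, 0.05 between NOTCH2KO and WT and -0.29 between NOTCH1KO and WT. After a correction for GC content and length, chosen after seeing the data, 15 members were higher and 7 lower in NOTCH2KO than in NOTCH1KO, and 11 higher and 4 lower in NOTCH2KO than in WT. In NOTCH1KO against WT, 7 were higher and 10 lower. In either direction, 35.1%, 23.6% and 26.8% of all genes tested were then called in these comparisons, where 31.7%, 19.3% and 23.5% had been. Of the members' original calls 17 of 23, 12 of 16 and 11 of 15 were kept. The members' median difference was then 0.27, 0.25 and -0.17 in these comparisons, where it had been 0.48, 0.46 and -0.25. The calls lost were those of EFNB1, EPHB2, EPHB3, EPHB4, EFNA4 and SEMA6C between the knockouts, of PLXNA2, SLIT3, SEMA3A and SEMA6C in NOTCH2KO against WT, and of EPHA2, EFNB1, PLXND1 and SEMA3F in NOTCH1KO against WT. With libraries centred on their medians, which moved the differences by -0.15, -0.10 and 0.05, the splits were 18 and 3, 9 and 3, and 4 and 11. Of all genes, 34.1%, 18.7% and 24.9% were called in that setting.

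**Figure D4:**
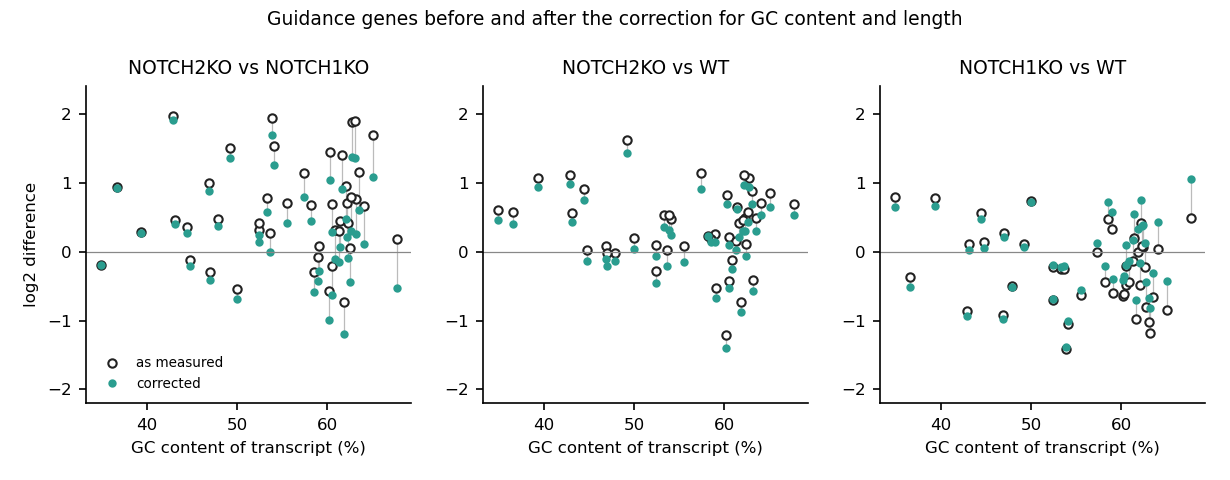
Log2 difference of each guidance gene against the GC content of its transcript in percent, as measured (open) and after correction for GC content and length (filled), for the 3 comparisons of genotypes. The correction moves most genes of high GC content down in NOTCH2KO against NOTCH1KO and up in NOTCH1KO against WT, and leaves SLIT3 in NOTCH1KO at -1.38, where it was -1.41.

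Genes that work with the guidance families were taken from lists by role. Of all genes, 19.8% were higher and 11.9% lower in NOTCH2KO than in NOTCH1KO, 12% and 7.35% in NOTCH2KO than in WT, and 10.7% and 12.8% in NOTCH1KO than in WT, and the counts of each list stand beside these shares. Of 12 tested coreceptors and other guidance receptors, 8 were higher and 1 lower in NOTCH2KO than in NOTCH1KO, and 4 higher and none lower in NOTCH2KO than in WT. In NOTCH1KO against WT, 2 were higher and 4 lower. NRP2, the neuropilin through which SEMA3F signals, averaged 181 TPM in NOTCH2KO, against 118 TPM in WT (log2 difference 0.61, SE 0.09, adjusted p = 0.00335), and NRCAM, an adhesion molecule in class 3 semaphorin receptors, differed by 1.35 (adjusted p = 0.00144) in the same comparison. In NOTCH1KO against WT, PTPRF, a receptor phosphatase, averaged 76.8 TPM against 26.8 TPM (log2 difference 1.49, SE 0.20, adjusted p = 0.00181), while MET, which associates with plexin B1, fell by 0.87 on the log2 scale (adjusted p = 0.0250). Of 9 other guidance ligands, 4 were higher and 2 lower in NOTCH2KO than in NOTCH1KO, and 4 and 2 in NOTCH2KO than in WT. In NOTCH1KO against WT, 2 were higher and 1 lower. SHH, the growth factor of granule cell precursors and an axon attractant, averaged 9.51 TPM in NOTCH2KO, against 1.29 TPM in WT (log2 difference 2.28, SE 0.17, adjusted p = 0.000151), and VEGFA, which also binds neuropilins, averaged 69.8 TPM in NOTCH1KO, against 181 TPM in WT (log2 difference -1.36, SE 0.12, adjusted p = 0.000247).

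Of 55 tested signal transducers, 16 were higher and 5 lower in NOTCH2KO than in NOTCH1KO, and 13 and 3 in NOTCH2KO than in WT. Between NOTCH1KO and WT, 10 were higher and 6 lower in NOTCH1KO. The lower counts among them were near the 11.9%, 7.35% and 12.8% of all genes called lower in these comparisons. CRMP1, a cytoskeletal mediator of semaphorin 3A signals, averaged 49.3 TPM in NOTCH2KO, against 10.6 TPM in NOTCH1KO (log2 difference 2.13, SE 0.09, adjusted p = 4.20e-06). The ephexin NGEF, which links EphA receptors to RHOA, differed by 1.86 (adjusted p = 0.000232) in that comparison and DPYSL5, a relative of CRMP1, by 1.67 (adjusted p = 6.53e-05). Of 9 heparan sulfate genes that assist slit binding, 3 were higher in NOTCH2KO than in NOTCH1KO, 2 higher in NOTCH2KO than in WT and 2 lower in NOTCH1KO than in WT, with none called the other way. The shares of all genes in those directions were 19.8%, 12% and 12.8%. Of 9 proteases that shed guidance proteins, 4 were higher in NOTCH2KO than in NOTCH1KO, and 2 higher and 1 lower in NOTCH2KO than in WT. In NOTCH1KO against WT 1 was higher and 1 lower, near the 10.7% and 12.8% of all genes, MMP14 averaging 183 TPM in NOTCH1KO, against 455 TPM in WT (log2 difference -1.31, SE 0.07, adjusted p = 1.87e-05).

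Some markers of other cells were called between genotypes as well. Of all genes, 19.8% were higher and 11.9% lower in NOTCH2KO than in NOTCH1KO, and 12% and 7.35% in NOTCH2KO than in WT. In NOTCH1KO against WT the shares were 10.7% and 12.8%, and the counts below stand beside these shares. Of 8 neuron markers, 5 reached a mean of 1 TPM, and the list summed to 115 to 126 TPM in NOTCH2KO, 50.6 to 75.2 TPM in NOTCH1KO and 60.1 to 84.1 TPM in WT libraries. All 5 were called higher in NOTCH2KO than in NOTCH1KO, and 3 higher in NOTCH2KO than in WT, STMN2 by 2.85. The cerebellar and medulloblastoma list summed to 137 to 179 TPM in NOTCH2KO, 64.5 to 97.7 TPM in NOTCH1KO and 85.5 to 108 TPM in WT libraries. Of its 6 tested genes, 3 were higher in NOTCH2KO than in NOTCH1KO and none lower, 2 higher and 1 lower in NOTCH2KO than in WT, and 2 lower in NOTCH1KO than in WT. The blood list, of which LCP1 alone passed 1 TPM, summed to 4.69 to 5.82 TPM in NOTCH2KO, 16.2 to 25.0 TPM in NOTCH1KO and 5.75 to 9.74 TPM in WT libraries, and LCP1 was called higher in NOTCH1KO than in WT and lower in NOTCH2KO than in NOTCH1KO. Astrocyte and oligodendrocyte markers (2 of 9 tested) summed to 8.24 to 10.6 TPM in NOTCH2KO, 9.35 to 12.2 TPM in NOTCH1KO and 6.24 to 7.58 TPM in WT libraries, with 1 called higher in each knockout than in WT. Epithelial markers (4 of 6 tested) summed to 686 to 812 TPM in NOTCH2KO, 588 to 760 TPM in NOTCH1KO and 763 to 1034 TPM in WT libraries, with 1 called, lower in NOTCH1KO than in WT. Of 9 tested fibroblast and mesenchyme markers, 1 was higher and 4 lower in NOTCH2KO, and 1 higher and 3 lower in NOTCH1KO, relative to WT. The fibroblast list summed to 7934 to 10496 TPM in NOTCH2KO, 8925 to 11298 TPM in NOTCH1KO and 8199 to 10374 TPM in WT libraries. The part of these differences in the guidance gene results was not tested.

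To learn whether Notch ligand or γ-secretase inhibition changed the guidance genes, the cultures were compared with 3 libraries each. None of the 45 members was called by limma in any of the 4 comparisons, and few genes were: 0.0114% of all genes for Jagged1 against Fc in DMSO cultures, 0.0284% for DAPT against DMSO on Jagged1, 0.0341% for DAPT against DMSO on Fc and 0.00568% for Jagged1 against Fc in DAPT. In the same order 10, 11, 5 and 3 of the 45 members had an unadjusted p under 0.05, beside 1901, 1939, 1082 and 836 of all 17621 genes. The smallest adjusted p of a member was 0.315, 0.124, 0.734 and 1. Of 7 tested Notch targets, HES1 alone was called between cultures, and only for DAPT on Jagged1, at 30.8 TPM with DAPT against 68.0 TPM with DMSO on Jagged1 (log2 difference -1.11, adjusted p = 0.0478). The median difference of these 7 targets was 0.91 between Jagged1 and Fc plates in DMSO. Between genotypes 2 of them were higher and 1 lower in NOTCH2KO than in NOTCH1KO, and 1 was lower in NOTCH2KO and 3 were lower in NOTCH1KO than in WT. The shares of all genes in those directions were 19.8%, 11.9%, 7.35% and 12.8%.

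NTN4 was at 82.3 TPM on Jagged1 against 21.7 TPM on Fc in NOTCH2KO with DMSO, at 57.9 against 26.9 TPM in NOTCH1KO and at 53.1 against 41.9 TPM in WT. With DAPT on Jagged1 it was at 37.4 TPM in NOTCH2KO, 13.5 TPM in NOTCH1KO and 25.8 TPM in WT, below the DMSO value in each genotype. Neither difference passed the test (Jagged1 against Fc in DMSO, log2 difference 1.09, SE 0.32, adjusted p = 0.321; DAPT against DMSO on Jagged1, log2 difference -1.38, SE 0.32, adjusted p = 0.177), although the 3 libraries of one culture did not overlap with the 3 of the other.

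UNC5B was at 6.79 TPM on Jagged1 against 4.83 TPM on Fc in NOTCH2KO with DMSO, at 20.8 against 9.15 TPM in NOTCH1KO and at 27.3 against 12.3 TPM in WT. With DAPT on Jagged1 it was at 5.12 TPM in NOTCH2KO, 5.87 TPM in NOTCH1KO and 10.2 TPM in WT, lower than with DMSO in 3 of 3 genotypes (log2 difference -1.12, SE 0.27, adjusted p = 0.205). That difference was called only when the NOTCH2KO library on Jagged1 with DMSO was left out (-1.47, adjusted p = 0.0433). In NOTCH2KO the 4 libraries ranged from 3.72 to 6.79 TPM, and the difference in the DAPT response between NOTCH2KO and NOTCH1KO was 1.14 with an unadjusted p of 0.00843 (adjusted p = 0.999).

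EFNB2 averaged 16.8 ± 2.94 TPM with DAPT and 26.8 ± 9.67 TPM with DMSO on Jagged1 (SD, n = 3 each), lower in 3 of 3 genotypes. Its adjusted p was the smallest of any member in the culture comparisons (log2 difference -0.61, SE 0.12, adjusted p = 0.124). ROBO1 averaged 13.1 ± 0.912 TPM with DAPT and 22.2 ± 2.19 TPM with DMSO on Jagged1 without overlap (-0.71, adjusted p = 0.297), and 22.2 ± 2.19 TPM on Jagged1 and 15.5 ± 3.28 TPM on Fc in DMSO (0.51, adjusted p = 0.457). EPHA2 and SEMA7A had lower values on Jagged1: EPHA2 averaged 50.8 ± 36.4 TPM on Jagged1 and 72.5 ± 31.8 TPM on Fc in DMSO, and SEMA7A 30.5 ± 7.91 TPM on Jagged1 and 45.7 ± 5.64 TPM on Fc (-0.63, adjusted p = 0.365, and -0.59, adjusted p = 0.315). SLIT3, so different between genotypes, averaged 15.4 ± 9.95 TPM on Jagged1 and 10.0 ± 6.04 TPM on Fc in DMSO (0.52, adjusted p = 0.358).

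**Figure D5:**
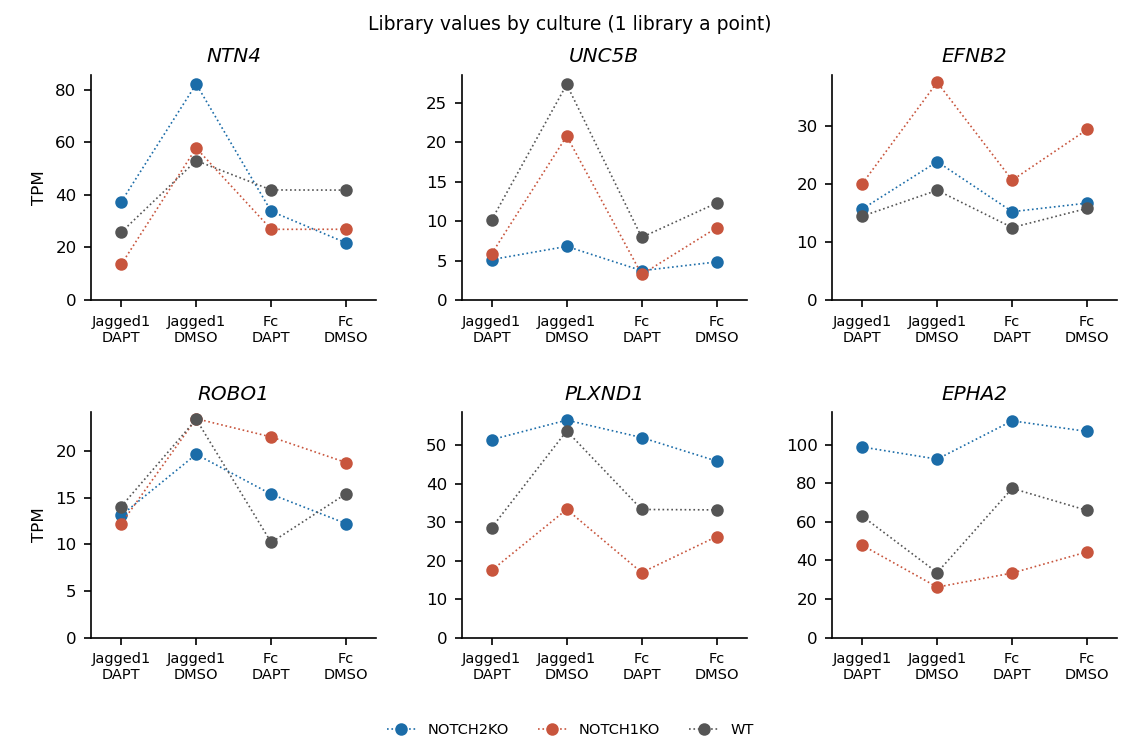
TPM of 6 guidance genes in the 4 cultures of each genotype, 1 library a point, with dotted lines joining the libraries of a genotype. NTN4 reaches 53.1 to 82.3 TPM with Jagged1 and DMSO and 13.5 to 37.4 TPM with Jagged1 and DAPT, and UNC5B stays between 3.72 and 6.79 TPM in NOTCH2KO.

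Whether the culture responses differed between genotypes was tested with 6 interaction contrasts, 3 for the response to Jagged1 with DMSO against the other cultures and 3 for that to DAPT on both plates. None of the members was called, where 0.0851% of all genes were in each of the first 3 and at most 0.0227% in the others. Between 3 and 8 of the 45 members had an unadjusted p under 0.05, beside 592 to 1259 of all 17621 genes. For PLXNB3 the response to Jagged1 with DMSO was higher by 1.76 in NOTCH1KO than in WT (unadjusted p = 0.0009, adjusted p = 0.378), on levels near or under 1 TPM. For SEMA3C it was higher by 1.48 in NOTCH2KO than in NOTCH1KO (unadjusted p = 0.00248, adjusted p = 0.406). For SEMA4B the DAPT response was lower in NOTCH2KO than in WT (-1.24, unadjusted p = 0.000836, adjusted p = 1), the NOTCH2KO libraries holding 14.6, 29.3, 12.8 and 28.2 TPM.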

How the data were processed

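RNA with poly-A tails was made into stranded TruSeq libraries and sequenced as single reads of 51 bases on a HiSeq2500, and the submitters' processing notes name bcl2fastq 2.17, CASAVA and GRCh37. The sources used here do not state the aligner, quantifier, annotation or strand setting, so reads of a gene and of an antisense partner may not have been told apart. The authors deposited gene tables with TPM (scaled for length and to a fixed sum), FPKM (scaled for length and library size) and coverage (mean read depth per base, unscaled). The ratio of the deposited coverage to FPKM spread over 1.5 times between libraries for 28 of 45 members, so coverage was run as an alternative. Columns of samples outside the study numbered 0.

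Members and lists were chosen with earlier results of these data known. SLITRK genes, UNC50 and ROBO2P1, 10 identifiers, were left out. TPM was summed per identifier and tested as log2(TPM + 1) with limma 3.58.1 in R 4.3.3, with a mean-variance trend, on 17621 genes with a mean of at least 1 TPM, with additive terms for genotype and culture and Benjamini-Hochberg adjustment over all genes for 7 comparisons. With 1 library per combination, the error (6 residual degrees of freedom, 4 for interactions) measured how far these libraries departed from additivity. It did not cover repeated cultures or further lines. An SD within a genotype is the spread over the 4 cultures of its line. Full library values were given for members called with an absolute log2 difference of at least 1 and for SEMA6A, UNC5B, SLIT3 and PLXNA2. Other called members were given group values, and members not called were given values for at most 4 of each family by level. Exceptions were the values given for a culture or interaction result and the library values of EFNB2 and EPHB6. These exceptions were chosen after their values were seen. List genes were named among the 4 largest called differences. GC content and length came from the annotated transcripts of the reference, for 96.7% of tested genes. Promoter windows came from RefSeq. Depth was derived from coverage over FPKM, with 18.3 to 22.4 M reads per library. Scripts were tested on simulated data. Tables and figures used Python 3.11.15, pandas 2.3.3 and matplotlib 3.10.9. A listed gene is not reported here.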

Additional observations from a re-analysis of the deposited data

How the results depend on the processing

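No paired analysis by replicate number was made, since the labels carry none. Libraries of the genotypes were matched by culture, which was a term of the main model. With 1 library left out, the members called numbered 18 to 23 in NOTCH2KO against NOTCH1KO (23 with all libraries), 7 to 22 in NOTCH2KO against WT (16) and 9 to 18 in NOTCH1KO against WT (15), with 0 to 1 for DAPT against DMSO on Jagged1 and 0 for the other cultures. Of all genes, 23.4% to 31.4%, 11.5% to 22.9% and 15% to 22.8% were called in these genotype comparisons. The 1 member for DAPT was called without NOTCH2KO on Jagged1 with DMSO, where 0.67% of all genes were. Without the filter on low values 20, 10 (9 higher and 1 lower) and 11 were called in the genotype comparisons in that order. The shares of all genes tested were then 17.3%, 10.2% and 11.6%. In that setting PLXNB3 was called for the response to Jagged1 with DMSO in NOTCH1KO against WT (1.76, limma adjusted p = 0.0387). That was 1 member where there had been 0, beside 1.35% of all genes tested, where 0.0851% had been called. The counts were 23, 21 and 19 on coverage, 23, 14 and 15 on FPKM, 23, 16 and 15 with a pseudocount of 0.1, 21, 14 and 14 without the culture term, 16, 11 and 12 of 32 members at a mean of at least 5 TPM, 21, 12 and 15 with median-centred libraries and 22, 15 and 17 after the GC correction. Of all genes tested, 36.2%, 23.9% and 28.7% were called on coverage, and 32.4%, 19.8% and 24.2% on FPKM. With a pseudocount of 0.1 the shares were 31.4%, 18.7% and 23.2%, and without the culture term 30.4%, 17.9% and 22.7%. At a mean of at least 5 TPM they were 33.4%, 20.2% and 26.2%. Median-centred libraries gave 34.1%, 18.7% and 24.9%, and the GC correction 35.1%, 23.6% and 26.8%. Members called in the opposite direction to their value in the main model were EPHB6 in NOTCH1KO against WT on coverage (-0.53, adjusted p = 0.0476), and NTN1 (-0.45, adjusted p = 0.0051) and SEMA6B (-0.53, adjusted p = 0.0318) in NOTCH2KO against NOTCH1KO after the GC correction. Their values in the main model were not called, and the cause of these changes was not tested. Outside the left-out libraries, the single-gene results kept their side of the threshold in 2352 further cases, with 27 gaining and 47 losing a call. Genes called in neither setting are among the 2352, and the culture comparisons had no call to lose, so that number does not measure how stable the calls were. Of the calls made, those kept in all of these settings were 15 of 23 in NOTCH2KO against NOTCH1KO, 7 of 16 in NOTCH2KO against WT and 9 of 15 in NOTCH1KO against WT. Direction was compared only where a gene was called in the main model or in the other setting. A member listed at 0 or under about 1 TPM rests on few reads at this depth, and differences of such genes are the least certain.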
